A study of Homo sapiens with 6 samples.

Results

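Complement is a set of secreted and membrane proteins that marks and damages targets outside the cell. The genes described here are 9 members of this system, 4 activating components (C3, CFB, C1R and C1S), 2 soluble regulators (CFI and SERPING1) and 3 regulators anchored in the cell membrane (CD46, CD55 and CD59). They were chosen by gene symbol, and all 9 were found among the 58174 genes listed in each sample. Poly(A) RNA was sequenced from T24, an established human bladder cancer cell line, in 3 shRNA-NC samples and 3 shRNA-UBC9 samples. UBC9 is the sole E2 enzyme that joins SUMO to its substrates, and the comparison asks which transcripts differ when it is knocked down. Both groups were infected with lentiviral shRNA vectors, selected with puromycin and grown as stable cultures. The shRNA-NC cells carried a scrambled control shRNA and the shRNA-UBC9 cells a hairpin against UBC9. A single UBC9 hairpin sequence is given, so its effect and the loss of UBC9 cannot be told apart. The sources used here do not state whether the samples of a group were separate cultures, and p-values then measure only the spread between these samples.

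In the classical pathway, the recognition protein C1q carries the proteases C1r and C1s, which cleave C4 and C2 to form a C3 convertase. In the alternative pathway, factor B joins the C3b fragment of C3 and forms a convertase that makes more C3b. Factor I cuts C3b into inactive forms with the help of cofactors, and C1 inhibitor (SERPING1) blocks C1r and C1s. CD55 speeds the decay of convertases, CD46 is a cofactor for factor I, and CD59 stops the assembly of the membrane attack complex on the cell's own surface. The liver is the main source of plasma complement, and epithelial cells can also make several components when exposed to cytokines.

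Levels are given in RPKM, which is a read count scaled to the length of the gene and to the mapped reads of the library. The depth relative to shRNA-NC replicate 1 ranged from 0.945 to 1.21 over the 6 samples. Of 14 epithelial and urothelial markers, 6 were at 0.5 RPKM or more in every sample, and they included KRT7, KRT8, KRT18, KRT19, GATA3 and PPARG. KRT5 was listed at 0 in every sample, and CDH1, TP63 and the uroplakins UPK1A, UPK1B, UPK2 and UPK3A did not exceed 0.125 RPKM. EPCAM was at 0.412, 0.986 and 0.575 RPKM in shRNA-NC and at 2.51, 1.27 and 0.732 RPKM in shRNA-UBC9, and the groups overlapped. The epithelial list, of which keratins made up most, summed to between 961 and 1131 RPKM in shRNA-NC and to between 437 and 572 RPKM in shRNA-UBC9. Of 3 endothelial markers, CDH5 was at 2.87, 3.15 and 2.58 RPKM in shRNA-NC and at 0.241, 0.594 and 1.02 RPKM in shRNA-UBC9, while PECAM1 and VWF did not exceed 0.0707 RPKM and overlapped. Of 3 fibroblast markers, PDGFRB was at 0.582, 0.688 and 1.02 RPKM in shRNA-NC and at 0.194, 0.219 and 0.194 RPKM in shRNA-UBC9, while DCN and LUM did not exceed 0.078 RPKM and overlapped. The part of these markers in the results was not tested. In bulk samples such as these, fewer cells of a type and less RNA per cell cannot be told apart. The 5 hepatocyte markers summed to at most 0.112 RPKM in shRNA-NC and 0.0768 RPKM in shRNA-UBC9. The 6 leukocyte markers summed to between 0.657 and 1.42 RPKM in shRNA-NC and to between 0.786 and 1.76 RPKM in shRNA-UBC9, with none at 0.5 RPKM in every sample. Among them CD14, a myeloid marker, was at 0.657, 0.260 and 0.642 RPKM in shRNA-NC and at 0.706, 0.692 and 0.752 RPKM in shRNA-UBC9, and the groups did not overlap.

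The activating components were higher in shRNA-UBC9, while CD46 and CD55 overlapped between the groups. C3, CFB, C1R and C1S were called up-regulated, with fold changes of 38.4, 12.4, 3.71 and 21.0 on the log2(RPKM + 0.1) scale. CD59 was 1.67-fold higher, which is below the 2-fold limit of a call. A gene was called with a log2 fold change above 1 or below -1 and an adjusted p-value under 0.05 in limma. Of the 9 genes, 7 had at least 0.5 RPKM in at least 3 of the 6 samples and were tested, and CFI and SERPING1 were below that level. Of the 7 tested genes, limma called 4 higher and 0 lower in shRNA-UBC9, and 0 were lower at an unadjusted p under 0.05. Over all 12428 tested genes, 5.20% were called higher and 2.70% were called lower. C3, CFB and C1S reached the level for testing only through shRNA-UBC9 samples, which favours a rise, so their calls add no support to the count. C1R, CD46, CD55 and CD59 reached it in shRNA-NC as well. Among these 4, the groups did not overlap for C1R and CD59, with all shRNA-UBC9 values higher, as for 25.7% of all tested genes.

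**Figure D1:**
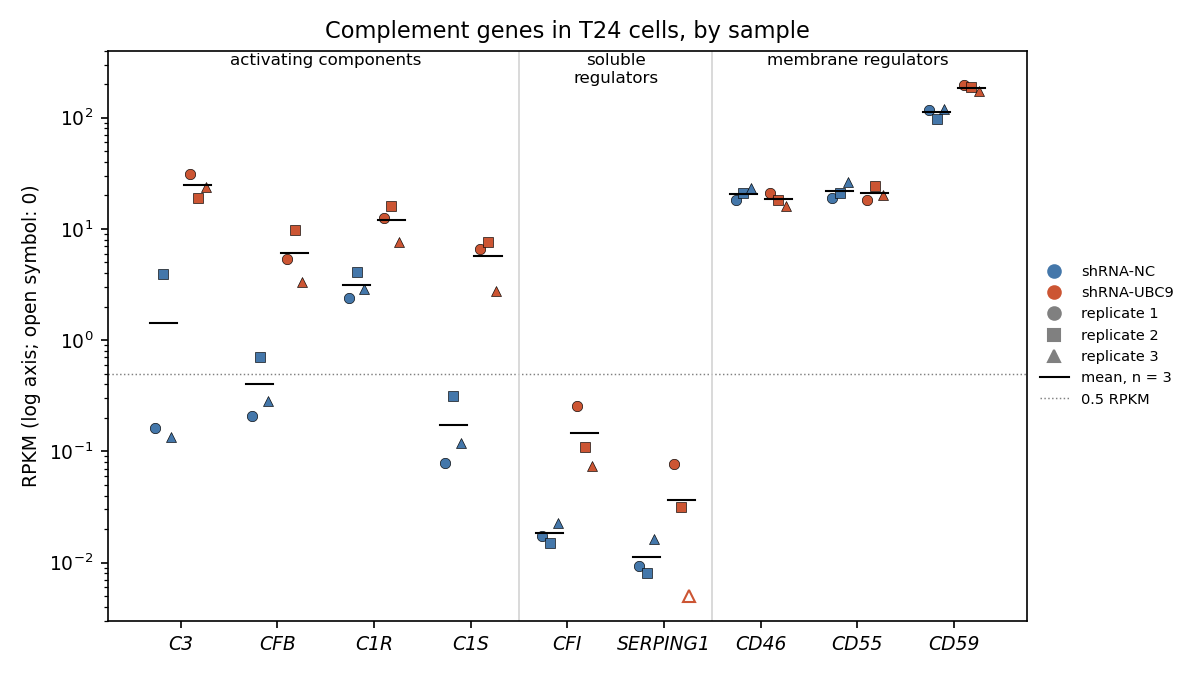
RPKM (log axis) of the 9 complement genes in each of the 6 T24 samples, with symbols for replicates 1 to 3, black lines at the mean of 3 samples and an open symbol for a value of 0. All shRNA-UBC9 points of C3, CFB, C1R, C1S, CFI and CD59 lie above all shRNA-NC points, whereas the groups overlap for SERPING1, CD46 and CD55.

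C3 is the central component on which all activation pathways converge (chr19:6677704-6730562, minus strand, GRCh38, GENCODE release 44). It was at 0.161, 3.96 and 0.135 RPKM in shRNA-NC replicates 1, 2 and 3. It was at 31.3, 18.8 and 23.7 RPKM in shRNA-UBC9 replicates 1, 2 and 3. Replicate 2 stood apart from the other shRNA-NC samples, by 29.4-fold between the highest and the lowest, whereas the shRNA-UBC9 samples spanned 1.66-fold. Low RPKM values rise in steps that correspond to whole reads, and the smallest whole numbers that give the C3 values are 40, 1142 and 38 reads in shRNA-NC and 9400, 5528 and 5561 reads in shRNA-UBC9. The 2 low shRNA-NC values of C3 thus rest on 40 and 38 reads. C3 rose by 5.26 on the log2 scale (standard error 0.95, limma adjusted p = 0.00386). Without shRNA-NC replicate 2 it was 6.61, without shRNA-NC replicate 1 it was 4.63 and without shRNA-NC replicate 3 it was 4.55, and C3 stayed called in each of these fits. With a pseudocount of 1 in place of 0.1 it was 3.75. The 95% interval of the main fit was wide, from 8.48-fold to 174-fold. The ratio of the C3 group means in RPKM was 17.3, smaller than the fold change of 38.4 on the log2 scale. In the release used here, C3 shares 1357 of its 11577 exon bases with an unnamed lncRNA on the same strand.

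CFB encodes factor B, the protease subunit of the alternative pathway convertase (chr6:31945650-31952086, plus strand). It was at 0.208, 0.711 and 0.284 RPKM in shRNA-NC and at 5.32, 9.71 and 3.31 RPKM in shRNA-UBC9, in replicates 1, 2 and 3. Replicate 2 was the highest in both groups, and the lowest shRNA-UBC9 value was above the highest shRNA-NC value. The CFB values correspond to 31, 123 and 48 reads in shRNA-NC and to 958, 1710 and 467 reads in shRNA-UBC9. CFB rose by 3.63 on the log2 scale (standard error 0.44, limma adjusted p = 0.000651), and by 2.26 with a pseudocount of 1. CFB shares 24 exon bases with its neighbour C2 and 2249 of its 5312 exon bases with an unnamed gene on the same strand. C2 itself had only 2 reads in the shRNA-NC samples together and 24 in the shRNA-UBC9 samples together. The reads of C2 bear only on the bases it shares with CFB. How reads shared with the unnamed gene were counted is not given in the sources used here.

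C1R and C1S encode the serine proteases of the C1 complex. The genes lie on chromosome 12 with their 3′ ends facing each other, C1S at chr12:6988259-7071032 on the plus strand and C1R at chr12:7080214-7092540 on the minus strand, with 9181 bases between them. C1R was at 2.37, 4.13 and 2.90 RPKM in shRNA-NC and at 12.6, 16.2 and 7.68 RPKM in shRNA-UBC9. C1S was at 0.0778, 0.317 and 0.119 RPKM in shRNA-NC and at 6.64, 7.69 and 2.79 RPKM in shRNA-UBC9. Within each group both genes were highest in replicate 2, and in shRNA-UBC9 both were lowest in replicate 3. The C1S values correspond to 15, 71 and 26 reads in shRNA-NC and to 1547, 1750 and 508 reads in shRNA-UBC9. C1R rose by 1.89 on the log2 scale (standard error 0.28, limma adjusted p = 0.00162). C1S rose by 4.40 (standard error 0.42, limma adjusted p = 0.000255). With a pseudocount of 1 the value for C1S was 2.44. C1R shares 672 of its 5803 exon bases with C1RL, a related gene next to it on the same strand. C1S shares 229 of its 8295 exon bases with an unnamed gene on the same strand. How shared reads were counted is not given in the sources used here.

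In these samples, the ratio of C1R to C1S was lower in shRNA-UBC9 than in shRNA-NC. In shRNA-NC, C1R was 30.5, 13.0 and 24.4 times as high as C1S in replicates 1, 2 and 3, by RPKM. In shRNA-UBC9, C1R was 1.89, 2.10 and 2.76 times as high as C1S. The groups did not overlap, and the mean log2 ratio moved from 3.64 ± 0.26 (SD, n = 3) to 1.13 ± 0.27 (SD, n = 3), a difference of -2.50 with 0.1 RPKM added to each value. The exact two-sided permutation test gave p = 0.1, and with 3 samples in each group it cannot give less. C1S reached the level for testing only through shRNA-UBC9 samples, which favours a lower ratio there, so this test adds no support. The size of this difference depends on the pseudocount, since C1S was near 0 in shRNA-NC. It was -0.80 with a pseudocount of 1 and -3.16 with a pseudocount of 0.01. The ratio of C3 to CFB, the partners of the alternative pathway convertase, was 0.774, 5.57 and 0.475 in shRNA-NC and 5.89, 1.94 and 7.15 in shRNA-UBC9. The groups overlapped for this ratio (exact two-sided permutation test, p = 0.2), and replicate 2 was the highest in shRNA-NC and the lowest in shRNA-UBC9.

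**Figure D2:**
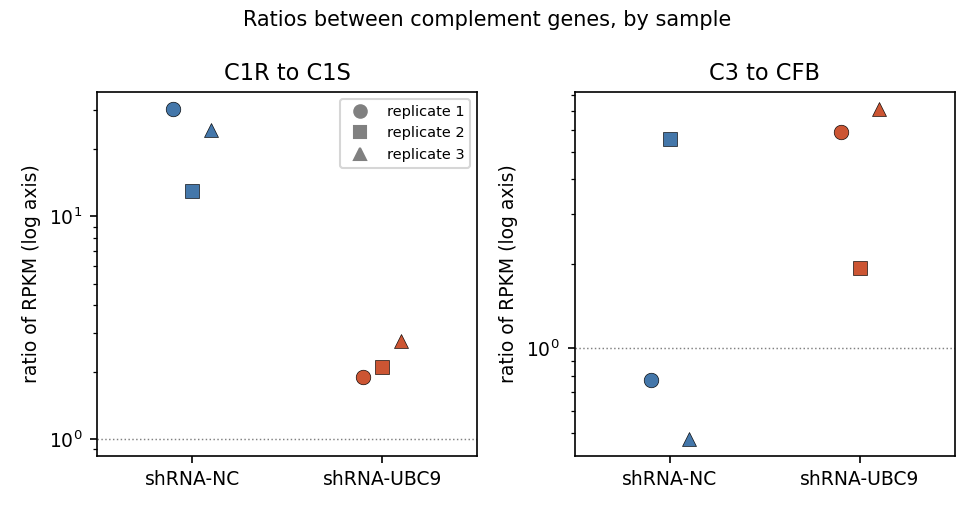
Ratio of RPKM between C1R and C1S and between C3 and CFB (log axes) in each of the 6 samples, with symbols for replicates. The C1R to C1S ratio lies between 13.0 and 30.5 in shRNA-NC and between 1.89 and 2.76 in shRNA-UBC9, whereas the C3 to CFB ratios of the groups overlap.

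The order of the replicates was not the same for all activating components. CFB, C1R and C1S were highest in replicate 2 of both groups. C3 was highest in replicate 2 of shRNA-NC and lowest in replicate 2 of shRNA-UBC9. On the log2(RPKM + 0.1) scale, the mean level over 16 interferon-stimulated genes was 2.85, 3.65 and 3.13 in shRNA-NC and 5.82, 6.80 and 5.65 in shRNA-UBC9, also highest in replicate 2 of both groups. The part of the interferon-stimulated genes' level in these values was not tested. Without replicate 2 of both groups, an alternative added after the values were seen, the log2 fold changes were 6.79 for C3, 3.64 for CFB, 1.87 for C1R and 4.48 for C1S, and all 4 were called. Of these 4, only C1R reached the level for testing in shRNA-NC as well, so the other calls add no support. Of all 12428 tested genes, kept as in the main fit, 627 were called higher and 309 lower.

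Promoter windows of 300 bases, 250 before to 50 after the annotated start, were taken from RefSeq (GRCh38.p14) to set the called genes CFB and C1R beside CD59 and CD55, which were not called. Windows were matched for 6 of the 9 genes, and none was used for C3, C1S and SERPING1. Each window was searched on both strands for the interferon-gamma activated site TTCNNNGAA, the core GAAANNGAA of the interferon-stimulated response element, the C/EBP motif TTGCNNAA, the TATA box TATAAA and the NF-kappaB consensus. Over all 35116 windows of the same length, 7.66% held the first, 8.11% the second, 10.5% the third, 11.5% the fourth and 11.3% the NF-kappaB consensus. Capitals mark matches to the interferon motifs and to the NF-kappaB consensus, and all sequences are written 5′ to 3′ on the strand of the gene. The windows lie at chr6:31945845-31946144 (plus strand) for CFB, chr12:7091844-7092143 (minus strand) for the second start of C1R, chr11:33736430-33736729 (minus strand) for the first start of CD59 and chr1:207321428-207321727 (plus strand) for CD55.
CFB: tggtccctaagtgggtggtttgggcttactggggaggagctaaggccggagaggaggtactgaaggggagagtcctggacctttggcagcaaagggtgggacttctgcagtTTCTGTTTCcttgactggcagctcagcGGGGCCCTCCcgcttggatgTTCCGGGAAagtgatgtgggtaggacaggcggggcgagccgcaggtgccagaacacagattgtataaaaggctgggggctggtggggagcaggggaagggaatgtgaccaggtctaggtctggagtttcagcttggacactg
C1R: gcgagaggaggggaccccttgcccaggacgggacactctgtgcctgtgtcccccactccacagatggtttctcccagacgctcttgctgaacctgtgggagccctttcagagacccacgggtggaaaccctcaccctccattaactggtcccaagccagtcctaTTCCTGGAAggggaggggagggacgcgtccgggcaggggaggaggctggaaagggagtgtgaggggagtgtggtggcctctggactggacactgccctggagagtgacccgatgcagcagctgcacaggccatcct
CD59: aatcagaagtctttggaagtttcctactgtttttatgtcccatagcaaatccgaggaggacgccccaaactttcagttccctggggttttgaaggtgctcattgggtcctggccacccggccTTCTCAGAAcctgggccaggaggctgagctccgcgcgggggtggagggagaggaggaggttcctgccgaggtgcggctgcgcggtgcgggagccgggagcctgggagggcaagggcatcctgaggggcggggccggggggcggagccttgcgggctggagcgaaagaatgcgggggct
CD55: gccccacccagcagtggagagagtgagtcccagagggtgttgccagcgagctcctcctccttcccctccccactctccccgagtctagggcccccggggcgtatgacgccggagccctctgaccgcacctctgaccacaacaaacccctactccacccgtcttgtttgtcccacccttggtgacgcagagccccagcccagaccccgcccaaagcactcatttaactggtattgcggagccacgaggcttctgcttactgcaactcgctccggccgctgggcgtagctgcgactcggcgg

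The CFB window held matches to the interferon-stimulated response element core, the NF-kappaB consensus and the activated site, which began at positions -139 (on the opposite strand), -112 and -92 from the start and did not overlap, and a TATA box at -30. The second C1R window held a match to the activated site at -86 and a C/EBP match at -167. The first C1R window, not shown, held a C/EBP match at -106 and no match to the other motifs. The shares over all windows are per window, and C1R and CD59 had more than 1 window each. The CD59 window shown held a match to the activated site at -128, which also lies in the overlapping second window, and the third of its 4 windows held 2 C/EBP matches. No match to any of the 5 motifs was found in the windows of CD55, CD46 and CFI. A match is a match of letters in a short window, and the binding of factors was not measured.

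The soluble regulators were near the limit of detection. CFI, the protease that inactivates C3b (chr4:109731008-109802150, minus strand), was at 0.0173, 0.0149 and 0.0229 RPKM in shRNA-NC and at 0.258, 0.110 and 0.0732 RPKM in shRNA-UBC9. These CFI values correspond to 2, 2 and 3 reads in shRNA-NC and to 36, 15 and 8 reads in shRNA-UBC9, so the groups did not overlap but the shRNA-NC level rests on 7 reads in all. CFI shares 1562 of its 5319 exon bases with an unnamed gene on the same strand. How these shared reads were counted is not given in the sources used here. The difference of the means of log2(RPKM + 0.1) was 0.99 for CFI, and it was 0.17 with a pseudocount of 1 and 2.30 with a pseudocount of 0.01. When every gene detected in any sample was tested, the adjusted p-value of CFI was 0.0481 (limma) with a log2 fold change of 0.99, below the limit of a call. SERPING1, which encodes C1 inhibitor (chr11:57597387-57619171, plus strand), was at 0.00930, 0.00801 and 0.0164 RPKM in shRNA-NC and at 0.0770, 0.0315 and 0 RPKM in shRNA-UBC9. The SERPING1 values correspond to 1, 1 and 2 reads in shRNA-NC and to 10, 4 and 0 reads in shRNA-UBC9. The value of 0 allows up to 3 reads, or 0.0295 RPKM, so the groups overlapped and no difference was detectable at this depth. With every gene detected in any sample tested, SERPING1 had a log2 fold change of 0.25 (adjusted p = 0.479, limma). Such limits and read counts cover counting error only. The inhibitor of C1r and C1s thus had 4 and 14 reads in the 3 samples of each group, against 1770 and 7031 reads for C1R.

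Among the membrane regulators, CD59 differed between the groups and CD46 and CD55 overlapped. CD59, an inhibitor of the membrane attack complex (chr11:33703010-33736479, minus strand), was at 118, 96.8 and 120.2 RPKM in shRNA-NC and at 197, 188 and 174 RPKM in shRNA-UBC9. The groups did not overlap, and CD59 was the most abundant of the 9 genes in all 6 samples. CD59 rose by 0.74 on the log2 scale (standard error 0.11, limma adjusted p = 0.0014), with a 95% interval of 1.41-fold to 1.98-fold. It therefore passed the adjusted p threshold, as did 18.8% of all tested genes in the upward direction, and stayed below the 2-fold limit in every fit that left out a sample. CD46, a cofactor for factor I (chr1:207752037-207795513, plus strand), was at 18.2, 21.0 and 23.2 RPKM in shRNA-NC and at 21.1, 18.3 and 16.1 RPKM in shRNA-UBC9. The log2 fold change of CD46 was -0.17 (adjusted p = 0.33, limma), with a 95% interval of 0.725-fold to 1.09-fold. CD55, which speeds the decay of convertases (chr1:207321519-207386804, plus strand), was at 19.0, 20.8 and 26.4 RPKM in shRNA-NC and at 18.1, 24.3 and 20.2 RPKM in shRNA-UBC9. Its log2 fold change was -0.08 (adjusted p = 0.709, limma), with a 95% interval of 0.748-fold to 1.20-fold, and the sign changed when shRNA-NC replicate 3 or shRNA-UBC9 replicate 1 was left out, to 0.06 and 0.02. For CD46 and CD55, a change of 2-fold in either direction lay outside the interval. CD59 shares 629 of its 10557 exon bases with an unnamed gene on the same strand. CD46 shares 797 of its 15505 exon bases with MIR29B2CHG on the opposite strand. The sources used here do not say that the counting used strand, so these reads cannot be told apart.

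**Figure D3:**
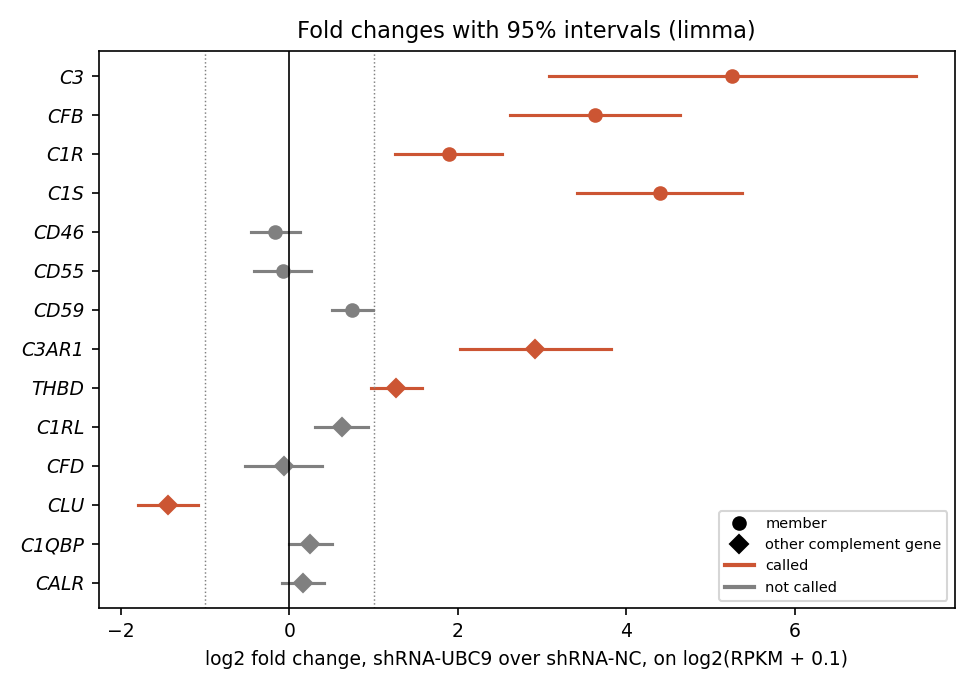
Log2 fold change of shRNA-UBC9 over shRNA-NC on the log2(RPKM + 0.1) scale for the 7 tested complement genes (circles) and 7 other tested complement genes (diamonds), with bars for the 95% interval from limma, n = 3 per group, and dotted lines at -1 and 1. C3, CFB, C1R and C1S lie to the right of 1 with their whole intervals, CD59 lies between 0.5 and 0.99, and the intervals of CD46 and CD55 cross 0.

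RPKM is scaled to gene length, so levels can be set side by side between genes. In shRNA-NC the order from the highest mean was CD59, CD55, CD46, C1R, C3, CFB, C1S, CFI and SERPING1. In shRNA-UBC9 it was CD59, C3, CD55, CD46, C1R, CFB, C1S, CFI and SERPING1. C3 thus moved from the fifth to the second place, with a mean of 24.6 ± 6.28 RPKM (SD, n = 3) in shRNA-UBC9 against 20.9 ± 3.13 for CD55 and 18.5 ± 2.50 for CD46 (SD, n = 3 each). These neighbours in shRNA-UBC9 overlapped in their sample values, as did CD46 and C1R, C1R and CFB, CFB and C1S, and CFI and SERPING1. In shRNA-NC, the sample values of CD55 and CD46, C1R and C3, C3 and CFB, CFB and C1S, and CFI and SERPING1 overlapped. Summed over the 4 activating components, the level was 2.82, 9.12 and 3.43 RPKM in shRNA-NC and 55.8, 52.4 and 37.4 RPKM in shRNA-UBC9. Summed over the 3 membrane regulators, it was 155, 139 and 170 RPKM in shRNA-NC and 236, 231 and 210 RPKM in shRNA-UBC9, and most of each sum was CD59. The membrane sum was above the activating sum in every sample. In shRNA-NC this did not rest on CD59, since CD46 alone was at 18.2, 21.0 and 23.2 RPKM. In shRNA-UBC9 it rested on CD59, since CD46 and CD55 together were below the activating sum in each sample.

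**Figure D4:**
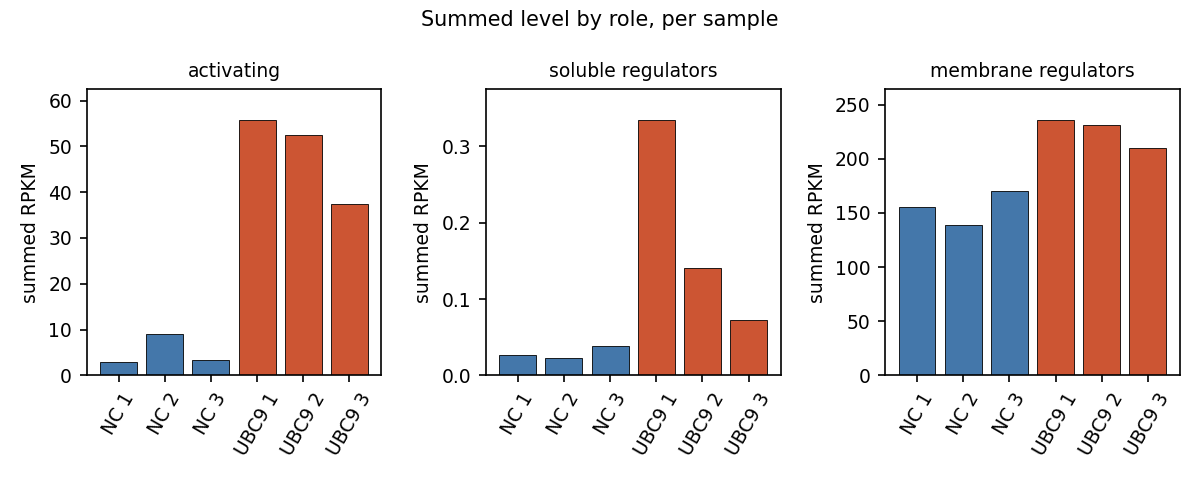
Summed RPKM of the activating components (C3, CFB, C1R, C1S), the soluble regulators (CFI, SERPING1) and the membrane regulators (CD46, CD55, CD59), 1 bar per sample on separate linear axes that start at 0, with NC for shRNA-NC and UBC9 for shRNA-UBC9. The activating sum is at most 9.12 in shRNA-NC and at least 37.4 in shRNA-UBC9, and the membrane sum is at least 139 in every sample.

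The rest of the system was read from a list of 55 other complement genes. Of these, 8 were tested, and 3 were called higher, 1 was called lower and 4 were not called. Of all 12428 tested genes, 5.20% were called higher and 2.70% were called lower. The called genes described here are C3AR1, THBD and CLU. C3AR1, the receptor for the C3a fragment, was at 0.0937, 0.0673 and 0.0689 RPKM in shRNA-NC and at 1.32, 2.17 and 0.644 RPKM in shRNA-UBC9. C3AR1 had 16 reads in all shRNA-NC samples together and 305 in all shRNA-UBC9 samples, and a log2 fold change of 2.92 (adjusted p = 0.00104, limma). It reached the level for testing only through its shRNA-UBC9 samples. C3AR1 is also a gene of myeloid cells. In shRNA-UBC9 replicates 1, 2 and 3, the myeloid markers were at 0.706, 0.692 and 0.752 RPKM for CD14, 0.0215, 0.00551 and 0.0344 RPKM for CSF1R and 0.786, 0.595 and 0 RPKM for LYZ. PTPRC, a marker of leukocytes in general, was at 0.0629, 0.102 and 0 RPKM there, and the part of such cells in the C3AR1 value was not tested. THBD, or thrombomodulin, which restrains coagulation and complement at the surface of endothelial and other cells, was at 2.62, 2.66 and 2.04 RPKM in shRNA-NC and at 5.70, 5.57 and 6.70 RPKM in shRNA-UBC9 (log2 fold change 1.27, adjusted p = 0.000337, limma). CLU encodes clusterin, which binds the terminal complex, and fell from 1.55, 1.76 and 1.62 RPKM to 0.587, 0.571 and 0.471 RPKM (log2 fold change -1.44, adjusted p = 0.000391, limma).

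C1RL, CFD, C1QBP and CALR were tested and not called. C1RL had a log2 fold change of 0.62 (adjusted p = 0.0092, limma), with 4.22, 4.11 and 5.20 RPKM in shRNA-NC and 8.03, 6.84 and 6.03 RPKM in shRNA-UBC9. CFD, the protease that cleaves factor B, was at 3.26, 2.13 and 2.20 RPKM in shRNA-NC and at 1.95, 2.25 and 2.96 RPKM in shRNA-UBC9, and the groups overlapped.

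Of the 47 listed genes that were not tested, 15 were at 0 RPKM in all 6 samples and the highest value of any was 0.807 RPKM, for C4BPB in shRNA-NC replicate 2. The C1q chains C1QA, C1QB and C1QC, which carry C1r and C1s in the C1 complex, were listed at 0 in every sample. C2, a substrate of C1s, had 1, 1 and 0 reads in shRNA-NC and 11, 10 and 3 reads in shRNA-UBC9. The other substrate is encoded by C4A and C4B, which are near-identical and therefore uncertain. C4A was between 0.0883 and 0.148 RPKM over the 6 samples and C4B between 0.0325 and 0.0857 RPKM. Of the components of the membrane attack complex, C6 was listed at 0 in every sample, and C7, C8A, C8B, C8G and C9 did not exceed 0.141 RPKM. C5 was at 0.415, 0.539 and 0.493 RPKM in shRNA-NC and at 0.280, 0.195 and 0.244 RPKM in shRNA-UBC9, so its shRNA-UBC9 values were all below its shRNA-NC values. C5 had a log2 fold change of -0.78 (adjusted p = 0.042, limma) when every gene detected in any sample was tested.

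For each called gene, the tested genes with the most similar pattern were found by Pearson's r of log2(RPKM + 0.1) over the 6 samples. These r values describe 6 points in 2 groups and mostly reflect the group difference, since 210 genes had an r over 0.95 with C3, 639 with CFB, 551 with C1R and 829 with C1S. The genes nearest to C3 were PCGF6 (r = 0.9992), SLMAP (r = 0.9959) and RP4-576H24.4 (r = 0.9936). PCGF6 ranked the 6 samples in the same order as C3, but the log2 fold changes of PCGF6 and SLMAP were 0.17 and 0.19. The genes nearest to CFB were DNAJA2 (r = 0.9986), TDRD7 (r = 0.9979) and XAF1 (r = 0.9973). XAF1 was at 1.03, 2.87 and 1.63 RPKM in shRNA-NC and at 18.1, 34.1 and 14.5 RPKM in shRNA-UBC9, close to the log2 fold change of CFB with 3.53. For C1R they were TRIM34 (r = 0.9978), ERP44 (r = 0.9972) and TMEM50A (r = 0.9965), and for C1S HSH2D (r = 0.9996), BIK (r = 0.9991) and RND3 (r = 0.999). Among the complement genes, CFB, C1R and C1S had r between 0.99 and 0.994 with each other, whereas C3 had r of 0.93 with CFB, 0.909 with C1R and 0.929 with C1S. All 6 samples contribute to each of these values, and the pairs share library and depth.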

How the data were processed

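Reads were trimmed and mapped to GRCh38 by the authors with the CLC Biomedical Genomics Workbench 4, and RPKM values were deposited for the 3 samples of each group. The annotation release, the counting of shared reads and the use of strand are not given in the sources used here. RPKM is not corrected for RNA composition.

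Groups and replicate numbers came from the sample labels. Genes with at least 0.5 RPKM in at least 3 of the 6 samples (12428) were compared as log2(RPKM + 0.1) with limma 3.58.1 in R 4.3.3 (lmFit, eBayes with a trend), with Benjamini-Hochberg adjustment over all of them. The added 0.1 RPKM makes the fold changes of low genes smaller. The absolute depth is unknown. Relative depth was the commonest ratio of a gene's value between samples, and reads are the smallest whole numbers, within 0.03, that give a gene's 6 values, so a true count may be a multiple. On simulated data for 12224 genes, 98% of 200 genes given a log2 fold change of 2 were called, and so was 1 gene left unchanged. The 200 genes were drawn from those with higher mean levels, and noise was simulated on the log2 scale, not as read counts. The share called therefore does not cover low genes. The members and lists were chosen with earlier results of these data known. The genes named were all members, the called genes of a list of 55 other complement genes, and the 3 genes most like each called member. Some results that this rule names are not reported here. Other genes of that list and marker genes were named beside them after their values were seen. Positions came from GENCODE release 44, promoter sequences from RefSeq. Alternatives were other pseudocounts, filters, scalings and thresholds, no trend, a replicate block and leaving out samples. Python 3.11.15, numpy 2.4.6, pandas 2.3.3, scipy 1.17.1 and matplotlib 3.10.9 were used.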

Additional observations from a re-analysis of the deposited data

How the results depend on the processing

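C3, CFB, C1R and C1S were called higher in all fits that could test them, and no complement member was called lower in any. With at least 1 RPKM required in every sample, C3, CFB and C1S were too low in shRNA-NC to be tested, so 1 of the members (C1R) was called. With each sample left out in turn and the tested genes kept as in the main fit, 4 members were called throughout. Only C1R of these reached the level for testing in shRNA-NC as well, so the other calls add no support. These fits gave 604 to 702 genes called higher and 308 to 363 called lower over all tested genes. The counts over all genes moved with a pseudocount of 1 (391 higher, 161 lower), with at least 1 RPKM required in every sample (342 higher, 210 lower) and with no limit on the fold change (2339 higher, 2237 lower). On the list of 55 other complement genes, the filter of 1 RPKM left 1 gene called higher and 0 called lower. A pseudocount of 1 left 2 called higher and 0 called lower, since the log2 fold change of CLU was then -0.78. With no filter on low values 2 were called higher, beside 813 of all 22896 genes tested in that fit. With a sample left out 2 or 3 were called higher. C3AR1 and THBD stayed called in every fit that tested them. The log2 fold change of CD55 ranged from -0.19 to 0.06 with a sample left out. The C1R to C1S log2 ratio difference was -0.80 with a pseudocount of 1 and -3.16 with a pseudocount of 0.01. The C3 to CFB difference of 1.64 was 2.57 without shRNA-NC replicate 2, 1.05 without shRNA-NC replicate 3 and between these without any other sample. As the numbers of the samples recur in both groups, a replicate block was fitted, with 642 genes higher, 332 lower and the same count of 4 members called. Deviations of same-numbered samples correlated at -0.367, 0.073 and -0.17, so the numbers were not taken to pair the samples. Depth limits CFI and SERPING1, whose values rest on at most 36 reads in a sample.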

Other observations

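Several complement genes below the level for testing had few reads. CFP encodes properdin, which stabilises the alternative pathway convertase, and had 20, 17 and 14 reads in shRNA-NC and 3, 10 and 6 reads in shRNA-UBC9. ITGAX, a subunit of a receptor for C3 fragments, had 3, 1 and 9 reads in shRNA-NC and 17, 25 and 13 reads in shRNA-UBC9. CD93, a membrane protein with a C-type lectin-like domain once described as a C1q receptor, had 2, 3 and 2 reads in shRNA-NC and 13, 12 and 11 reads in shRNA-UBC9. C4BPB, a chain of the soluble C4b-binding protein, varied widely, with 34, 90 and 10 reads in shRNA-NC and 4, 1 and 10 reads in shRNA-UBC9. These genes were chosen after their values were seen, and none was tested in the main comparison.

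Among the leukocyte markers, CD14 was above 0 in all 6 samples, while LYZ, PTPRC and CD3E were listed at 0 in shRNA-NC replicate 1 and shRNA-UBC9 replicate 3. LYZ was at 0, 0.409 and 0.536 RPKM in shRNA-NC and at 0.786, 0.595 and 0 RPKM in shRNA-UBC9. ITGB2, a leukocyte integrin chain on the list of complement genes, was at 0.108, 0.353 and 0.126 RPKM in shRNA-NC and at 0.114, 0.109 and 0.120 RPKM in shRNA-UBC9. Their part in the complement values was not tested.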
